A study of Mus musculus with 9 samples.

Results

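The copy number of 7 mouse genes of the G1 phase of the cell cycle was measured in 9 mammary tumours: the D-type cyclins Ccnd1, Ccnd2 and Ccnd3, the E-type cyclins Ccne1 and Ccne2, and the kinases Cdk4 and Cdk6. Each gene was represented by all array probes inside a window that holds it, and the 7 windows together held 636 of the 963261 distinct probes. The windows, in mm9 coordinates, were chromosome 7, 152.05 to 152.20 Mb (Ccnd1, 80 probes), chromosome 6, 127.00 to 127.20 Mb (Ccnd2, 90 probes), chromosome 17, 47.60 to 47.80 Mb (Ccnd3, 124 probes), chromosome 7, 38.80 to 38.93 Mb (Ccne1, 61 probes), chromosome 4, 11.05 to 11.20 Mb (Ccne2, 91 probes), chromosome 10, 126.45 to 126.55 Mb (Cdk4, 62 probes) and chromosome 5, 3.30 to 3.60 Mb (Cdk6, 128 probes). The files name no genome build and pair no probe with a gene, so a value describes the DNA of a window, genes next to the member included, and no exon is resolved. Protein-coding neighbours in RefSeq's gene order were Fgf15, LTO1, Tpcn2 and Smim38 around Ccnd1, Zfp536, Uri1, 1600014C10Rik and Plekhf1 around Ccne1, and Cyp27b1, Marchf9, Tspan31 and Agap2 around Cdk4.

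Each tumour had a 2-colour Agilent tiling array of its own, on which its genomic DNA (Cy5) competed with a pool of tail DNA (Cy3) from mice without tumours. All tumours came from mice of mixed background with floxed Rb and p53 alleles, so the design of Cre-mediated deletion of both genes was common to every group. In 7 tumours MMTV-Cre was used, a transgene expressed in mammary epithelium but not in it alone. A nulliparous and a parous mouse gave 1 tumour each, and the labels call the other 5 transplants. The other 2 tumours were transplants in which an adenovirus carrying Cre behind a CMV promoter (Ad-Cre) had been used. The labels describe the tumours as independent primary mammary tumours. The age of the mice, the transplant hosts and the share of non-tumour cells are not given in the sources used here.

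D-type cyclins bind and activate Cdk4 and Cdk6, and these kinases phosphorylate the retinoblastoma protein, which releases E2F transcription factors. E-type cyclins, themselves E2F targets, then activate Cdk2 and carry the cell into S phase. CCND1 and, less often, CCNE1 are amplified in human breast cancer, and in cells without the retinoblastoma protein the D cyclins and their kinases are held to be dispensable for entry into S phase.

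Values are log2 ratios of tumour to pool after centring each array on its autosomal median, so that 0 is the middle of that tumour's autosomes, and not necessarily 2 copies. The most frequent level (mode) of the centred ratios was 0.1475 in Ad-Cre transplant 1 and -0.0275 to 0.0475 in the other arrays. Centring on the mode would thus lower every value of Ad-Cre transplant 1, its losses and its higher values alike. If every cell of a diploid tumour had 1 extra copy the ratio would be 0.58, and admixed normal cells bring it nearer to 0. The noise of a single probe was 0.159 to 0.183 between neighbouring probes, and within the 7 windows the standard error over probes was 0.016 to 0.042 per tumour. Deviations of single probes from the window mean were correlated between arrays, with median coefficients of 0.61 to 0.87 by window. Single probes thus tended to deviate alike on different arrays. Whether the mean of a window shares such a deviation was not tested. Of the floxed genes, a run of adjacent low probes on chromosome 11, which carries Trp53, stood at 30.7% to 59.8% of the flanking signal in 8 tumours and at 97.8% in the library labelled MMTV-Cre transplant 2. For Ccne1 and Cdk6 against the pool, and in the group comparisons, results are therefore also given without this library. Other values include it unless stated. No run low in at least 7 tumours was found on chromosome 14, which carries Rb1, and deletion of Rb1 was not assessed otherwise.

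None of the 7 genes reached, in any tumour, the 0.58 that 1 extra copy in every cell would give. The highest value was 0.41, for Cdk6 in the library labelled MMTV-Cre transplant 2, and the lowest -0.33, for Ccnd1 in the MMTV-Cre parous tumour. With 0.25 as the threshold, 2 of 63 pairs of gene and tumour were gained, against 9.14% of pairs of 100 kb windows and tumours over all autosomes, and 5 of 63 were lost, against 8.89%. The gains were Cdk6 in the library labelled MMTV-Cre transplant 2, where 20.2% of all windows were gained, and Cdk4 in MMTV-Cre transplant 4, where 11.7% were. The losses were Ccnd1 and Ccne1 in the MMTV-Cre parous tumour, where 13.3% of windows were lost, and Ccnd1, Ccne1 and Ccnd3 in Ad-Cre transplant 1, where 27.3% were. The members' share of losses was thus near the genome's and that of gains below it, and counts this small do not set the members apart. Without the parous tumour 3 losses were left, and without Ad-Cre transplant 1 there were 2. Ccnd2 and Ccne2 passed the threshold in no tumour.

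**Figure D1:**
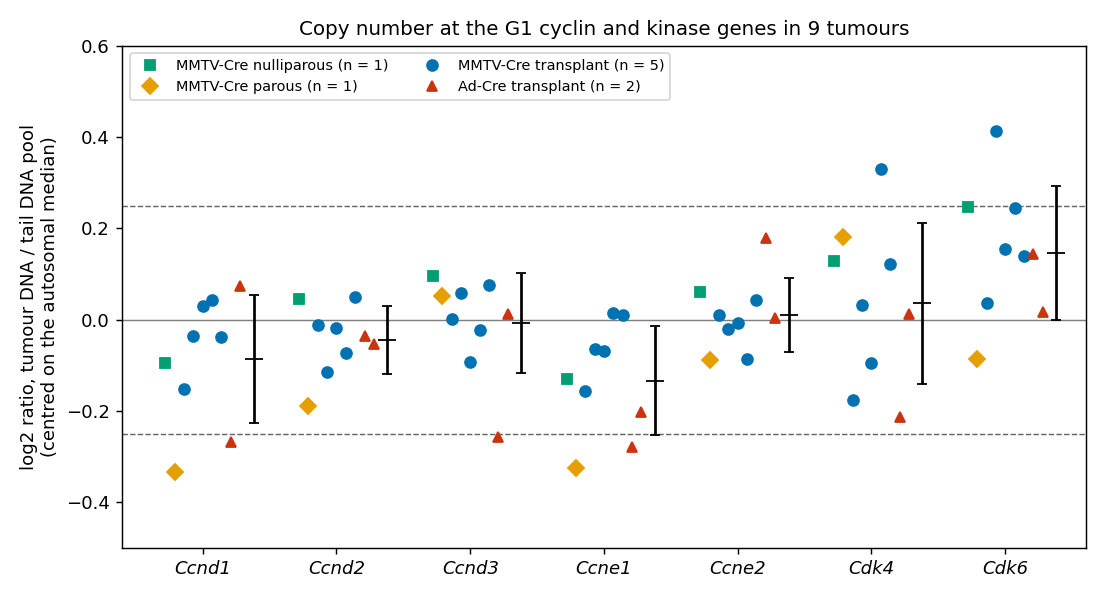
Log2 ratio of each gene's window in each of the 9 tumours, by group, with the mean and SD over the 9 tumours in black. Dashed lines mark the thresholds of 0.25 and -0.25. Cdk6 lies highest, with 8 of 9 tumours above 0, and Ccne1 lowest, with 7 of 9 below 0.

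Ccnd1 encodes cyclin D1, the D-type cyclin most used by mammary epithelium. Its log2 ratio was -0.10 in the nulliparous and -0.33 in the parous MMTV-Cre tumour. The MMTV-Cre transplants 1 to 5 had -0.15, -0.04, 0.03, 0.04 and -0.04, and Ad-Cre transplants 1 and 2 had -0.27 and 0.07. The parous tumour and Ad-Cre transplant 1 were the lowest, and the groups overlapped. The mean was -0.09 ± 0.14 (SD, n = 9), below 0 in 6 of 9 tumours, and did not pass the test against the pool (limma adjusted p = 0.158, Benjamini-Hochberg over 23361 windows, 95% interval of the mean -0.19 to 0.01).

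Cyclin D2, encoded by Ccnd2, had the narrowest spread of the D cyclins. Ccnd2 had 0.05 (nulliparous) and -0.19 (parous), the transplants with MMTV-Cre had -0.01, -0.11, -0.02, -0.07 and 0.05, and those with Ad-Cre -0.04 and -0.05. Apart from the parous tumour and the library labelled MMTV-Cre transplant 2, every value lay within 0.1 of 0. The mean was -0.04 ± 0.08 (SD, n = 9; limma adjusted p = 0.364).

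For Ccnd3, which encodes cyclin D3, the nulliparous and parous tumours had 0.10 and 0.05. In the MMTV-Cre transplants the values were 0.0011, 0.06, -0.09, -0.02 and 0.08, and in the Ad-Cre transplants -0.26 and 0.01. Ad-Cre transplant 1 was the lowest, on a chromosome 17 whose median was -0.30 in that tumour. The mean was -0.0084 ± 0.11 (SD, n = 9; limma adjusted p = 0.891).

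Among the E-type cyclins, Ccne1 (cyclin E1) was the lowest of the 7 genes. Its values were -0.13 (nulliparous), -0.32 (parous), -0.16, -0.06, -0.07, 0.01 and 0.01 in the MMTV-Cre transplants and -0.28 and -0.20 in the Ad-Cre transplants. All 3 tumours at or below -0.20 were the parous tumour and the Ad-Cre transplants, and the highest were 2 MMTV-Cre transplants near 0. The mean of -0.13 ± 0.12 (SD, n = 9), a ratio of 0.912 to the pool, was below 0 (limma adjusted p = 0.0256; exact two-sided sign-flip permutation p = 0.0156, of a smallest possible 0.0039). When the library labelled MMTV-Cre transplant 2 was left out, Ccne1 averaged -0.14 (exact permutation p = 0.0312). The limma call was lost, at an adjusted p of 0.0510 to 0.0550, without the parous tumour, Ad-Cre transplant 1 or Ad-Cre transplant 2, whose values are the 3 lowest.

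Ccne2 (cyclin E2) had 0.06 in the nulliparous and -0.09 in the parous tumour, 0.01, -0.02, -0.01, -0.09 and 0.04 in the MMTV-Cre transplants, and 0.18 and 0.003 in the Ad-Cre transplants. Ad-Cre transplant 1 was the highest, while chromosome 4 as a whole had a median of 0.19 in it. The mean was 0.01 ± 0.08 (SD, n = 9; limma adjusted p = 0.853). The E-type cyclins thus differed in sign of the mean, and in 8 of 9 tumours Ccne1 lay below Ccne2, by 0.14 ± 0.16 on average (SD of the paired difference).

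Cdk4, a partner kinase of the D cyclins, varied most between tumours. It had 0.13 and 0.18 in the nulliparous and parous tumours, -0.18, 0.03, -0.10, 0.33 and 0.12 in the MMTV-Cre transplants and -0.21 and 0.01 in the Ad-Cre transplants. High and low tumours occurred within the MMTV-Cre transplants and did not follow the groups. The mean of 0.04 ± 0.18 (SD, n = 9) did not pass the test (limma adjusted p = 0.625, 95% interval -0.08 to 0.15).

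Cdk6, the other kinase of the D cyclins, was the highest of the 7 genes. Its values were 0.247 in the nulliparous and -0.09 in the parous tumour, 0.04, 0.41, 0.15, 0.245 and 0.14 in the MMTV-Cre transplants, and 0.14 and 0.02 in the Ad-Cre transplants. Only the parous tumour was below 0. The mean was 0.15 ± 0.15 (SD, n = 9), a ratio of 1.11, and was above 0 (limma adjusted p = 0.0268; exact two-sided sign-flip permutation p = 0.0195). When the library labelled MMTV-Cre transplant 2 was left out it was 0.11 (exact permutation p = 0.0391), and the limma call was lost at an adjusted p of 0.052 to 0.0635 without that library, the nulliparous tumour, MMTV-Cre transplant 4 or MMTV-Cre transplant 5.

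Against the pool, then, 1 of 7 genes was higher, where 17.1% of all windows were called higher, and 1 of 7 was lower, where 19.8% were called lower. Calls were common across the genome, and the members' counts were near this background. The median of the 7 means was -0.0084, beside -0.02 for all windows. The arrays were scanned on 3 days, and the mean of Cdk6 was 0.23, 0.18 and 0.08 on the 3 days (n = 2, 3 and 4) while that of Ccne1 was -0.11, -0.02 and -0.23. The order of the means was Cdk6, Cdk4, Ccne2, Ccnd3, Ccnd2, Ccnd1, Ccne1, and no neighbours in it differed by more than the SD of their paired difference: Cdk6 exceeded Cdk4 by 0.11 ± 0.21, and Ccnd1 exceeded Ccne1 by 0.05 ± 0.09. The ends of the order did: Cdk6 was above Ccne1 in 9 of 9 tumours, by 0.28 ± 0.12 (SD, n = 9), a difference given without a test since it was picked from the order.

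The kinases had the 2 gained values, and the promoters of both are shown for that reason. RefSeq's promoter table (GRCm38.p6, another build than the window positions, 250 bases before to 50 after the start) held 4 of the 7 genes. The capitals mark CACGTG, the palindromic E-box that reads the same on both strands and is known as a binding motif of the Myc family. It occurred 4 times at Cdk4 (chr10:127063285-127063584, plus strand) and 1 time at Cdk6 (chr5:3343643-3343942, plus strand). Of 32851 promoters of this length, 7.15% held it, and 8 promoters, 0.0244%, held it at least 4 times. Counts at the other members of that table are not given, so the motif is not shown to set the kinases apart.
Cdk4: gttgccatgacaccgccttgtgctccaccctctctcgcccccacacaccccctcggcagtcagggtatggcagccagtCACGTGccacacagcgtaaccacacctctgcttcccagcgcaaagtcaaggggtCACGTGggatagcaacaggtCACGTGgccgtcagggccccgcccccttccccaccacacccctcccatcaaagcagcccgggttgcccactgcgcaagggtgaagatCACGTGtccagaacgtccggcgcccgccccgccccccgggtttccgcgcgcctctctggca
Cdk6: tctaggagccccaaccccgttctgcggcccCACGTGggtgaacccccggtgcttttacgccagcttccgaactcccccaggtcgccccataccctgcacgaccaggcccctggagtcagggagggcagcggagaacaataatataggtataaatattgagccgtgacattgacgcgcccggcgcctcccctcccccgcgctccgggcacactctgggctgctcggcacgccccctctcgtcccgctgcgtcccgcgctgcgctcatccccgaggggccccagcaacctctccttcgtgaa
The arrays measured how much DNA of these regions a tumour held, and neither the binding of a factor nor promoter activity.

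The levels of the 7 genes lay close to those of their chromosomes. In 55 of 63 pairs of gene and tumour the window lay within 0.1 of the median of its chromosome in the same tumour, while over all windows 75.8% of pairs did. The 2 shares are not strictly alike: member windows spanned 100 to 300 kb with 61 to 128 probes, the others 100 kb with at least 3 probes. Chromosome 5 of Cdk6 had a median above 0 in 9 of 9 tumours (mean 0.16 ± 0.12, SD), and chromosome 7, shared by Ccnd1 and Ccne1, a median below 0 in 9 of 9 (mean -0.15 ± 0.11). In MMTV-Cre transplant 4, where Cdk4 was at 0.33, the whole of chromosome 10 was at 0.26. In the library labelled MMTV-Cre transplant 2, where Cdk6 was at 0.41, chromosome 5 was at 0.40. Both gains thus lay on chromosomes whose medians passed 0.25 as well.

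**Figure D2:**
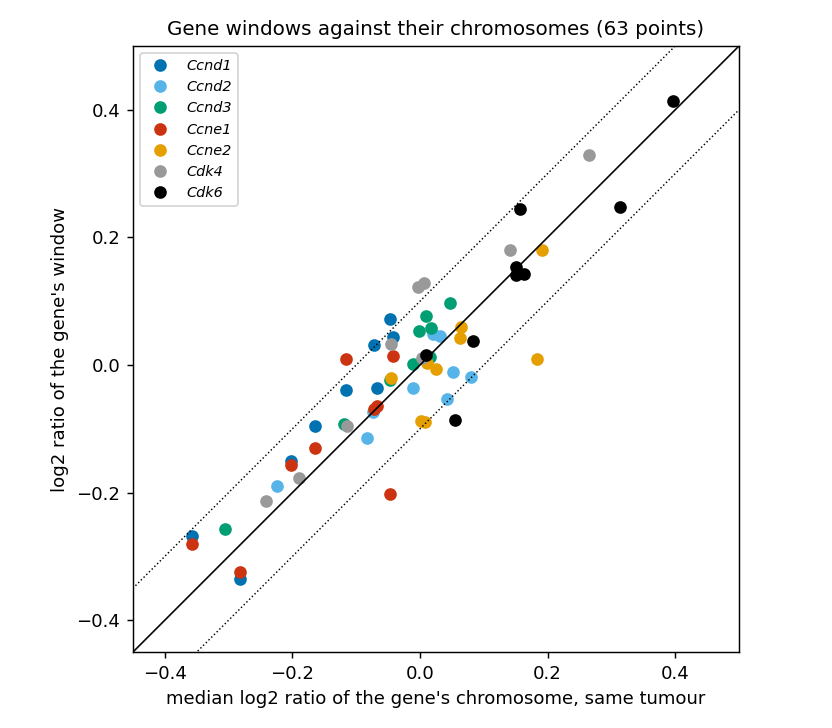
Log2 ratio of each gene's window against the median log2 ratio of its chromosome in the same tumour, 63 points. The solid line marks equality and the dotted lines a distance of 0.1, within which 55 points lie.

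The 8 pairs beyond 0.1 involved 5 genes. Ccnd1 was above chromosome 7 by 0.10 in MMTV-Cre transplant 3 and by 0.12 in Ad-Cre transplant 2. Ccne1 was above it by 0.12 in MMTV-Cre transplant 5 and below it by 0.15 in Ad-Cre transplant 2 (-0.20 against -0.05). Ccne2 was at 0.01 in MMTV-Cre transplant 1, where chromosome 4 stood at 0.18, inside a segment of 22.9 Mb with a mean of 0.01. Cdk4 was above chromosome 10 by 0.12 in the nulliparous tumour and by 0.13 in MMTV-Cre transplant 5. Cdk6 was below chromosome 5 by 0.14 in the parous tumour (-0.09 against 0.06). It lay in a block of 34.2 Mb at the start of the chromosome with a median of 0.03. The segment of 14.5 Mb that held Cdk6 there had a mean of -0.03, so the window was below both.

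Each array was divided into segments of equal level, and a step of at least 0.2 between segments counted as a breakpoint. No breakpoint fell inside any of the 7 windows in any tumour. In 10 of 63 pairs a breakpoint lay within 1 Mb of the window, against 4.88% of all pairs of window and tumour, 6 of them at Ccne1, 3 at Ccne2 and 1 at Cdk6. The 3 at Ccne2 shared nearly the same place: their nearest breakpoints lay 822.5 to 833.1 kb above the window. All 10 pairs had 2 such breakpoints each, and when segments shorter than 1 Mb were set aside, 1 pair was left, Ccne1 in MMTV-Cre transplant 5. Whole-chromosome blocks depended on these short segments: with them, Cdk4 lay in a block without any breakpoint in 4 of 9 tumours, Cdk6, Ccnd3, Ccnd1 and Ccne1 in 1 of 9 each, and Ccne2 and Ccnd2 in 0. With those short segments aside, Cdk6 lay on a chromosome left without any breakpoint in 8 of 9 tumours. The library labelled MMTV-Cre transplant 2 is among them, although the segment of 0.894 Mb that held Cdk6 there was itself set aside. Ccne2, Cdk4 and Ccnd3 lay on such a chromosome in 6 of 9 each, Ccnd1 and Ccne1 in 5 of 9 each, and Ccnd2 in 2 of 9. Ccne2 in MMTV-Cre transplant 4 was the exception at the other end, in a block of 3.13 Mb on a chromosome 4 with 21 breakpoints, at a block median of -0.05.

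Ccnd1 and Ccne1 lie 113.3 Mb apart on chromosome 7 and could be set against each other within a tumour. They were both low in the parous tumour (-0.33 and -0.32) and in Ad-Cre transplant 1 (-0.27 and -0.28). In Ad-Cre transplant 2 they parted: Ccne1 was at -0.20 and Ccnd1 at 0.07, a difference of 0.27, the widest of the 9 tumours. There, with short segments aside, a single breakpoint split the chromosome into a block of 51.8 Mb with Ccne1, with a median of -0.26, and one of 97.6 Mb with Ccnd1, with a median of 0.0061. Ccnd1 is 0.323 Mb from the last probe of its chromosome and Cdk6 0.053 Mb from the first probe of chromosome 5, so the outer flank of each is short.

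**Figure D3:**
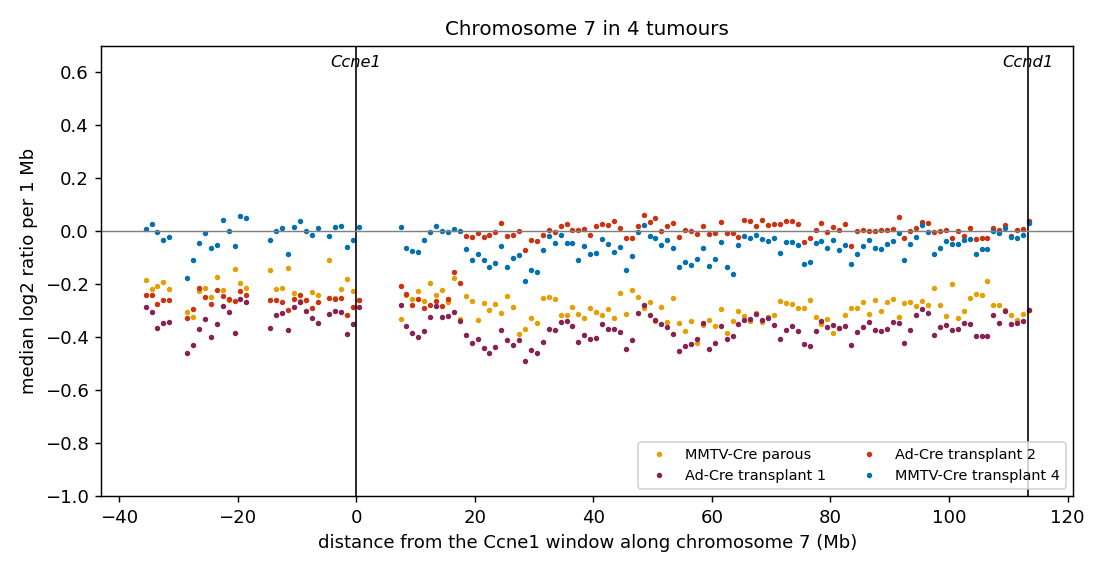
Median log2 ratio per 1 Mb along chromosome 7 in 4 tumours, by distance from the Ccne1 window in Mb (bins of at least 20 probes). The parous tumour and Ad-Cre transplant 1 are low along the whole chromosome, Ad-Cre transplant 2 is low in a block that holds Ccne1 and near 0 from there to Ccnd1, and MMTV-Cre transplant 4 lies between -0.19 and 0.06.

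To ask whether a gene differed from its surroundings, the mean of the probes within 1 Mb on each side was subtracted from its window. Ccnd1 was above its flanks in 8 of 9 tumours, by 0.05 ± 0.03 (SD, n = 9; limma adjusted p = 0.00157). Its differences were 0.05, -0.0039, 0.04, 0.02, 0.04, 0.09, 0.07, 0.07 and 0.07, in the order nulliparous, parous, MMTV-Cre transplants 1 to 5 and Ad-Cre transplants 1 and 2. Cdk4 was above its flanks in 9 of 9, by 0.03 ± 0.02 (adjusted p = 0.0139), and Ccne1 in 8 of 9, by 0.06 ± 0.07 (adjusted p = 0.0264). Ccne2 was below its flanks in 7 of 9, by 0.03 ± 0.03 (mean -0.03; adjusted p = 0.0419). Ccnd2 (-0.02, adjusted p = 0.0521), Ccnd3 (-0.0084, adjusted p = 0.275) and Cdk6 (0.02, adjusted p = 0.159) did not pass. The difference of Cdk4 was 0.0054 with flanks of 0.5 Mb (adjusted p = 0.517), 0.0056 without the spot filter (0.614) and 0.01 against the median of its flank probes (0.229), and its call was lost in all 3.

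That made 3 of 7 genes higher than their flanks, where 27.0% of all windows were called higher, and 1 of 7 lower, where 26.8% were called lower. With 53.8% of windows called in either direction, a count of 4 of 7 says nothing particular about these genes. No difference reached 0.25 in any of the 63 pairs of gene and tumour, where 1.2% of all pairs did, the largest being 0.16 for Ccne1 in MMTV-Cre transplant 5. All 7 means lay between the 5th and 95th percentile of the means of all windows, -0.08 to 0.09. The calls of Ccne1 and Ccne2 were close to the threshold: that of Ccne1 was lost without the nulliparous tumour, MMTV-Cre transplants 2, 4 or 5 or Ad-Cre transplant 2 (adjusted p 0.0527 to 0.0628), and that of Ccne2 without MMTV-Cre transplants 1, 3, 4 or 5 or either Ad-Cre transplant (0.0597 to 0.0887). Conversely Ccnd2 passed without the nulliparous tumour (0.0495), the parous tumour (0.0221) or MMTV-Cre transplant 5 (0.0416), and Cdk6 without the parous tumour (0.0226), all from limma.

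**Figure D4:**
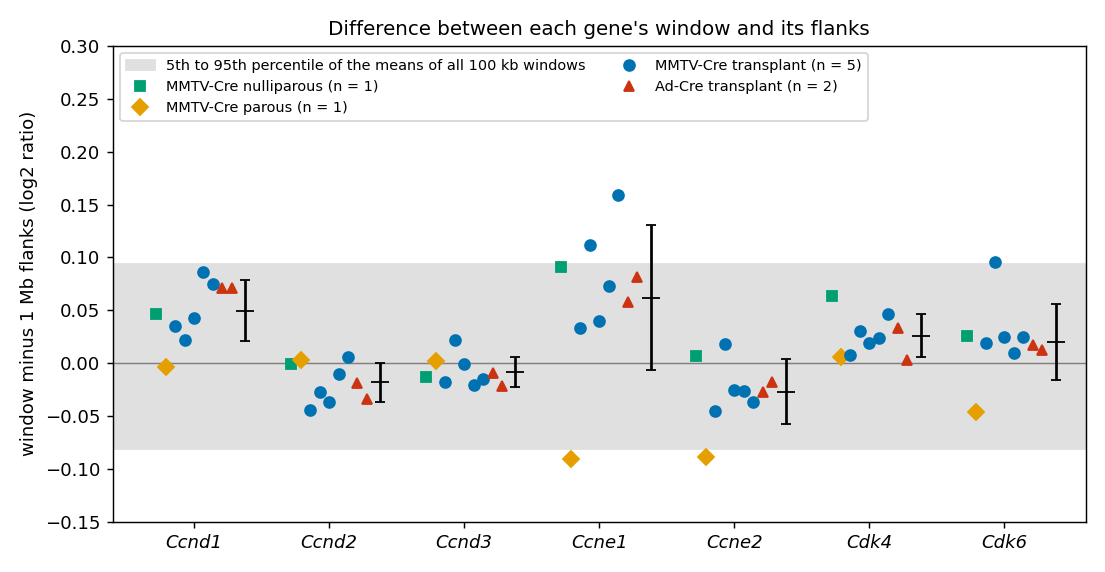
Window minus the probes within 1 Mb on each side, per gene and tumour, with the mean and SD in black. The grey band holds the means of the middle 90% of all windows, -0.08 to 0.09, and all 7 black means lie inside it.

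A short locus beside Ccne1 entered its upper flank. It started 30.9 kb above the end of the window and spanned 24.6 kb (chr7:38960941-38985531, positions as in the files), with 14 probes whose reference signal was 4.22 to 21.1 times the autosomal median. Of all autosomal probes, 0.097% were above 4 times. Over these probes the log2 ratio was -1.31 in the nulliparous and -0.11 in the parous tumour, -0.72, -1.98, -0.68, -1.38 and -3.63 in the MMTV-Cre transplants and -1.16 and -2.01 in the Ad-Cre transplants (mean -1.44 ± 1.02, SD, n = 9). The 8 tumours other than the parous were thus well below the pool there, from -0.68 to -3.63. The other probes of the upper flank had means of -0.30 to 0.14, and above them the array has no probe over 7.44 Mb.

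This locus bears on the values of Ccne1. With probes of such bright reference signal left out of the flanks, a setting chosen after the data had been seen, Ccne1 exceeded its flanks by 0.02 (limma adjusted p = 0.17) and the call was lost, while those of Ccnd1, Cdk4 and Ccne2 were kept. The nearest breakpoints to Ccne1, in the 6 tumours that had them, lay 26.96 to 32.65 kb above the end of its window, where the bright probes begin. The Ccne1 window itself does not include the locus, and its mean of -0.13 was not affected by it.

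**Figure D5:**
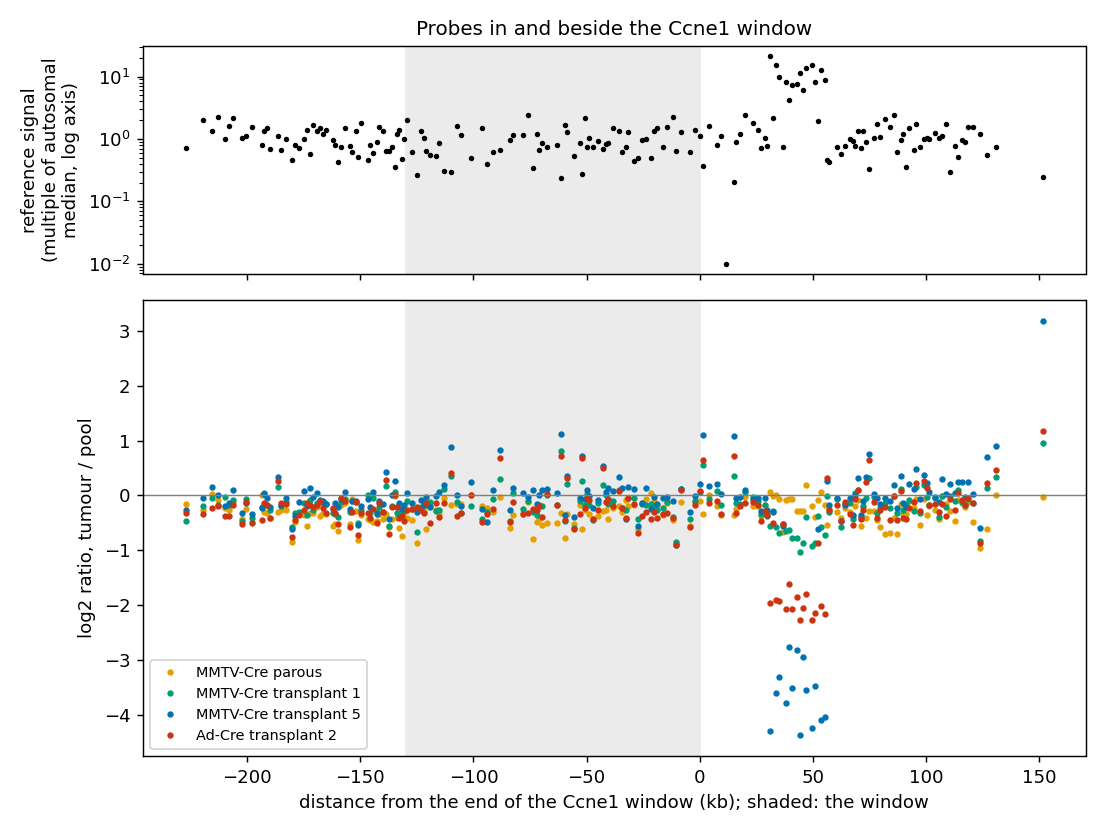
Probes in and beside the Ccne1 window by distance from the end of the window in kb. Top, reference signal as a multiple of the autosomal median on a log axis. Bottom, log2 ratio in 4 tumours. The 14 bright probes above the window are near 0 in the parous tumour and lowest in MMTV-Cre transplant 5, at -3.63 on average.

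The first comparison between groups set the 2 Ad-Cre transplants against the 5 MMTV-Cre transplants, which differ in how Cre was delivered. None of the 7 genes was called, and 0.0% of all windows were (limma; 581 of 23361 windows and none of the 7 genes had an unadjusted p below 0.05). Ccne1 had the widest gap: -0.28 and -0.20 with Ad-Cre against -0.16 to 0.01 with MMTV-Cre, so the groups did not overlap, as in 9.1% of all windows. The difference was -0.19 (95% interval -0.40 to 0.02; limma adjusted p = 0.969; exact two-sided permutation p = 0.0476, the smallest that 21 groupings allow). For the other 6 genes the groups overlapped. Their differences ran from -0.14 for Cdk4 (95% interval -0.42 to 0.14) to 0.10 for Ccne2 (-0.10 to 0.31). They depended on the Ad-Cre tumour kept: without Ad-Cre transplant 1 the difference was -0.03 at Cdk4, 0.02 at Ccne2, 0.10 at Ccnd1 and 0.0094 at Ccnd3, and without Ad-Cre transplant 2 it was -0.26, 0.19, -0.24 and -0.26. Without MMTV-Cre transplant 4 the difference at Cdk4 was -0.07.

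The second comparison set the 5 MMTV-Cre transplants against the 2 MMTV-Cre tumours of intact glands. Again none of the 7 genes and 0.0% of all windows were called (limma; 1080 windows and none of the 7 genes had an unadjusted p below 0.05), and the groups overlapped at every gene, where 11.6% of windows did not overlap. The widest differences were at the chromosome 7 genes: Ccnd1 was higher in the transplants by 0.18 (95% interval -0.06 to 0.43; exact two-sided permutation p = 0.0952) and Ccne1 by 0.17 (-0.04 to 0.38; exact permutation p = 0.0952). Cdk6 differed by 0.12 (-0.15 to 0.38) and Ccne2 by 0.0018 (-0.21 to 0.21). The intervals of Ccnd1, Ccne1 and Cdk6 reach past the gain threshold of 0.25, so likeness of the groups is not shown there. The absence of a call does not show likeness at the other genes either, Cdk4 (difference -0.11) included. Without the parous tumour the differences were 0.065 at Ccnd1, 0.076 at Ccne1 and -0.05 at Cdk6, and without the nulliparous tumour 0.305, 0.271 and 0.284, so each rested on which intact-gland tumour was kept. Without the library labelled MMTV-Cre transplant 2, too, 0 of 7 genes were called in both comparisons, and the difference at Cdk6 was -0.06 in the first and 0.06 in the second. They share the MMTV-Cre transplants, and in both the groups lay on different scan days, so group and scan day cannot be told apart.

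Other genes of the same pathway could be placed only by the median of their chromosome. Of 17 listed genes on 12 chromosomes, 9 lay on chromosomes with a mean above 0 and 8 on chromosomes with a mean below 0. Cdk2, the partner of the E-type cyclins, shares chromosome 10 with Cdk4 (mean -0.02 ± 0.16, SD, n = 9). The inhibitors of Cdk4 and Cdk6 encoded by Cdkn2a, Cdkn2b and Cdkn2c share chromosome 4 with Ccne2 (0.06 ± 0.08, above 0 in 8 of 9), while Cdkn2d, of the same inhibitor family, lies on chromosome 9 (-0.04 ± 0.13, above 0 in 4 of 9). Cdkn1c, an inhibitor of cyclin and kinase complexes, shares chromosome 7 with Ccnd1 and Ccne1. The A-type cyclin genes Ccna1 and Ccna2 lie on chromosome 3, which had the highest mean of the list, 0.25 ± 0.21, above 0 in 9 of 9.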

How the data were processed

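Agilent Feature Extraction 10.5.1.1 was used by the authors on arrays of design 027414, per the file headers. It gave a processed intensity for each channel (background subtracted, detrended, linear dye normalisation), deposited beside the raw median intensity of spot and background. The authors' deposited ratios are log10 of red over green, and the series table holds them rounded, within 0.005. No dye swaps or arrays of control DNA were used, so the spread of control DNA is in no test.

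From the deposited signals a log2 ratio was computed for each spot. Between 1597 and 2115 of 974016 spots per array were left out (reference not well above background, non-uniform or population outliers), spots of a probe were averaged, and arrays were centred on the autosomal median. The median reference signal was 21.8 to 32.5 times its background, the tumour signal 15.2 to 17.9 times, and no probe of the 7 windows was saturated. The number of arrays limits the precision.

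The 7 windows and 23354 autosomal windows of 100 kb with at least 3 probes were fitted together with limma 3.58.1 in R 4.3.3 (Benjamini-Hochberg, threshold 0.05), with exact permutations over tumours for single genes. Against 0 the permutation turned signs (512 patterns). Segments came from a penalised least-squares fit (PELT) of bins of 5 probes, penalty factor 10, at least 2 bins. On simulated data limma recovered 68% of shifts of 0.25 and 95% of 0.5 against the pool (5 false calls among 23361 windows), 85% of shifts of 0.1 against the flanks, and 40% and 43% of differences of 0.5 in the 2 group comparisons. Simulated windows were independent, unlike those of a chromosome.

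The genes named are the 7 members, a list of 17 pathway genes by chromosome, and direct neighbours of members. Members, lists and thresholds were chosen with earlier results of these data known. Alternatives were background correction (normexp, offset 50), loess within arrays, the mode as centre, the series table, spot filters, window, flank, threshold and segmentation settings, scan day as a block, and each tumour left out. RefSeq's table of GRCm38.p6 gave names, chromosomes and order, and none of its gene coordinates was used, since probes of 10 autosomes lie beyond its last gene. Scripts ran in Python 3.11.15 with pandas 2.3.3, numpy 2.4.6, numba 0.67.0, scipy 1.17.1 and matplotlib 3.10.9.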

Additional observations from a re-analysis of the deposited data

Results flagged for a closer look

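Dixon's test for a value far from its group was applied 28 times, to the levels and window-minus-flank differences of the 7 genes over all 9 tumours and within the MMTV-Cre transplants, and 2 values passed, where chance gives about 1 in 20.

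The Ccne1 window lay below its flanks by 0.09 in the MMTV-Cre parous tumour (a difference of -0.0905), while the other 8 tumours had 0.0331 to 0.159 above. In the same tumour the bright locus in the upper flank of Ccne1 was at -0.11, against -0.68 to -3.63 in the others.

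Among the 5 MMTV-Cre transplants, the Cdk6 window exceeded its flanks by 0.0952 in the library labelled MMTV-Cre transplant 2, and by 0.0096 to 0.0244 in the other 4. This is the tumour with the highest level of Cdk6, 0.41, and the one whose run of probes on chromosome 11 was not low. A segment of 0.894 Mb with a mean of 0.37 held Cdk6 there. It ran from the first probe of chromosome 5 to 541.3 kb above the window, so it ended inside the upper flank. A segment of 1.77 Mb with a mean of 0.40 began at position 4191517, also inside that flank, so the higher level did not end there. With segments shorter than 1 Mb set aside, the one that held Cdk6 included, no breakpoint was left on that chromosome, whose median was 0.40. The part of any of these values in the difference was not tested.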

How the results depend on the processing

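No paired analysis was possible because the labels give no replicate numbers shared between groups. In alternatives over all tumours, the 7 means against the pool kept their direction wherever they had been called. Cdk6 was not called when arrays were centred on the mode (0 of 7 higher; 0.12, limma adjusted p = 0.108) and Ccne1 not under within-array loess (0 of 7 lower; -0.10, adjusted p = 0.0755). With scan day as a block, whose estimated correlation was -0.18, 2 of 7 were lower, Ccnd1 (adjusted p = 0.0331) joining Ccne1. Windows called higher and lower over the genome were 3988 and 4621, 5021 and 2858 with normexp, and 2563 and 6038 with mode centring. With scan day as a block they were 5612 and 7110, so more windows of the whole genome were called there, not only Ccnd1. Under loess they were 4376 and 4093. Leaving out tumours gave 0 to 1 higher and 0 to 1 lower.

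Against the flanks, 3 higher and 1 lower became 1 higher and 2 lower without the spot filter, 1 and 3 with the median of the flank probes, 3 and 2 with 200 kb windows or scan day as a block, and 3 and 0 with normexp, loess, dim probes dropped, the median of a window's probes, or the chromosome median in place of flanks. Over the genome, 6306 windows were called higher and 6256 lower with the flanks used above. The counts were 6139 and 6754 without the spot filter, and 4239 and 9045 with the median of the flank probes. With the chromosome median they were 3597 and 7393, and with scan day as a block 7118 and 6942. Of 11771 windows in the 200 kb setting, 2993 and 3077 were called. Calls over the genome thus shifted with these settings too. Leaving out tumours gave 2 to 4 higher and 0 to 2 lower. The differences of Ccnd3 (0.0354 against the chromosome median, adjusted p = 0.0107) and Ccne2 (0.0082 with flanks of 2 Mb, adjusted p = 0.727) changed sign, as did those of Ccnd2 (-0.0531 to 0.0043) and Cdk6 (-0.0184 to 0.038, called with flanks of 0.5 Mb at an adjusted p of 0.00286). Ccnd1 was called above its flanks in all 14 alternatives over all tumours.

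Of 63 pairs, gains numbered 6 with normexp, 7 at a threshold of 0.15 and 1 at 0.4, and losses 3 with loess, 11 at 0.15 and 0 at 0.4. Over all pairs of window and tumour, 18.6% were gained and 19.5% lost at 0.15, and 2.98% and 2.32% at 0.4. With each tumour left out gains were 1 to 2 and losses 2 to 5. Pairs with a breakpoint within 1 Mb numbered 22 with a penalty factor of 5, 3 with 20 and 1 with segments of at least 1 Mb. Shares over all windows are not given here for normexp, loess or these segmentation settings, so these counts have no background beside them. In the group comparisons 0 of the 7 genes was called under any alternative. The cause of these changes was not tested.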
